A study of Mus musculus with 13 samples.

Results

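The kinases that signal DNA damage to TAp63α, the p63 isoform that guards the quality of oocytes, were followed at the RNA level over 6 h after γ-irradiation. They are Atm, Atr, Chek1, Chek2, Csnk1a1, Csnk1d, Csnk1e and Abl1, chosen by name for their place upstream of p63, and they make up 8 of the 49585 genes to which the deposited transcripts were assigned. All 8 had reads in each of the 13 libraries, from 424 to 8943 estimated reads per gene and library, and all 8 passed the filter on low counts in every comparison. The RNA came from oocytes of ovaries of P5 mice of the outbred CD-1 stock, which were cultured overnight and irradiated with a caesium-137 source. The study's methods give 4 ovaries per time point, so a library is a pool and not a single animal. The 0.5 Gy series had pairs of libraries for 0, 1 and 4 h but a single library for 2.5 h and another for 6 h, where 0 h is the control before irradiation. Replicate 1 of 0, 1 and 4 h belongs in the labels to a first generation, and all other 0.5 Gy libraries belong to a second. At 0.2 Gy there was 1 library for each of the 5 times, all of the third generation, so that dose and generation cannot be told apart. The p-values given here measure the spread between these libraries only.

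In resting oocytes TAp63α is held as an inactive dimer. Double-strand breaks activate ATM, and stalled or resected DNA activates ATR. These kinases phosphorylate the checkpoint kinases CHK2 and CHK1, the products of Chek2 and Chek1. CHK2 primes TAp63α, after which casein kinase 1 adds further phosphates and the dimer opens into the active tetramer. Csnk1a1, Csnk1d and Csnk1e encode the α, δ and ε isoforms of casein kinase 1. Abl1 encodes the tyrosine kinase c-Abl, which has been placed on p63 and p73 in damaged cells. All of these steps act on existing protein, whereas the values here are RNA.

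The libraries held between 15709549 and 30430104 estimated reads, the fewest in replicate 2 of 0 h at 0.5 Gy. All 10 oocyte markers examined were found in every library, with a summed level of 3092 to 4736 CPM (counts-per-million, normalized with TMM). Markers of other cells were present too, and no marker was at 0 in any library. The 8 granulosa cell markers summed to between 1494 and 2341 CPM, the 6 stroma markers to between 1788 and 3460 and the 4 red blood cell markers to between 850.5 and 6072. The 6 leukocyte markers summed to between 31.9 and 259.4 CPM and the 3 endothelial markers to between 47.7 and 105.2. In such bulk samples fewer cells of a type and less RNA per cell cannot be told apart, and the part that these other cells have in the kinase values was not tested.

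Csnk1a1 was the most abundant of the 8 kinases once transcript length was taken into account. Per kilobase of the longest protein-coding transcript, its level was a median of 68.9 CPM over the 13 libraries, from 52.0 to 101.8. This scale was added after the TPM values described next had been seen. Csnk1e followed at 28.3 CPM per kilobase, Csnk1d at 25.1, Chek1 at 19.5, Atr at 13.9, Chek2 at 12.8, Abl1 at 6.75 and Atm at 4.71. The highest median was 14.6 times the lowest. Csnk1a1 exceeded Csnk1e in all 13 libraries, Chek1 exceeded Atr in 13 and Chek2 exceeded Abl1 in 13. Csnk1d exceeded Chek1 in 12 libraries and Abl1 exceeded Atm in 12. Csnk1e exceeded Csnk1d in only 8 of 13 libraries and Atr exceeded Chek2 in only 8, so these neighbours in the order did not separate beyond their spread. Among the casein kinase 1 isoforms, Csnk1a1 held a median of 55.6% of the summed level per kilobase, Csnk1e 23.2% and Csnk1d 20.9%.

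**Figure D1:**
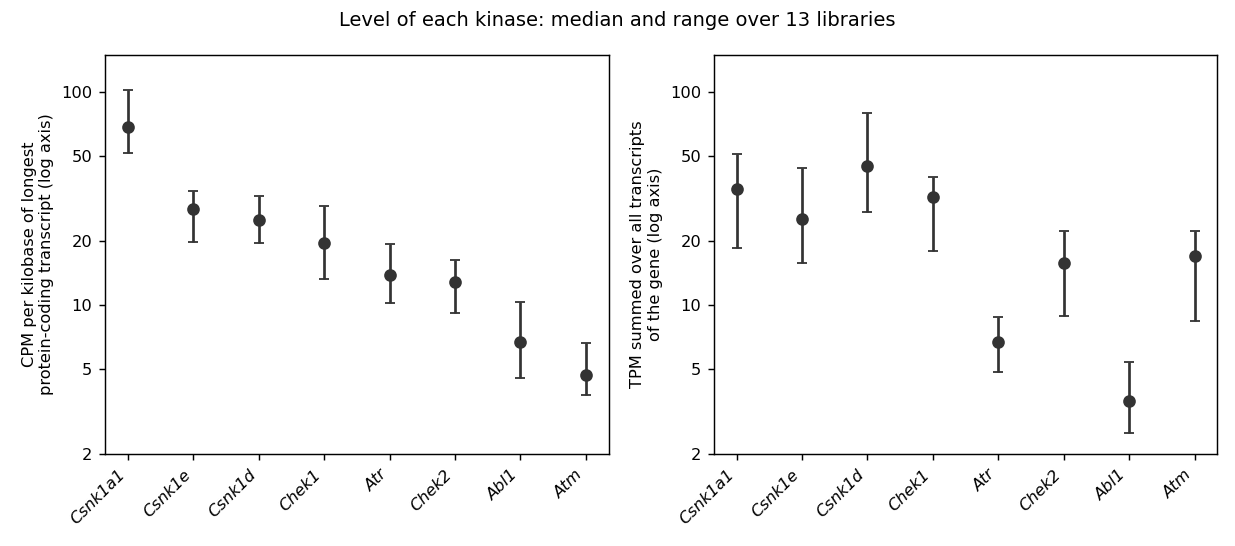
Level of each kinase on a log axis, as CPM per kilobase of the longest protein-coding transcript (left) and as TPM (transcripts-per-million) summed over all annotated transcripts (right); points are medians and bars the range over 13 libraries. Csnk1a1 leads on the left at 68.9, whereas Csnk1d leads on the right at 44.9 TPM and Atm moves from the last place to the fifth.

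The order changed when the deposited TPM was summed over all transcripts of a gene. On that scale Csnk1d led with a median of 44.9 TPM, followed by Csnk1a1 with 35.2, Chek1 with 32.1, Csnk1e with 25.4, Atm with 17.0, Chek2 with 15.8, Atr with 6.70 and Abl1 with 3.56. Here Abl1 exceeded Atm in 0 of 13 libraries. Abl1, the lowest, still stood above a median of 64.2% of all protein-coding genes in a library, and Csnk1d stood above 93.3%. Over protein-coding transcripts only, Csnk1a1 led again with 33.1 TPM. Chek1 followed with 22.7 and Csnk1e with 18.5, and Csnk1d took the fourth place with 16.2. The difference between these scales lay in a few short transcripts, which are described with the genes below.

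None of the 8 kinases changed by the criterion used, an adjusted p under 0.05 with edgeR's quasi-likelihood test and a change of more than 2-fold. At 0.5 Gy, 0 of 8 were called late (2.5, 4 and 6 h) against early (0 and 1 h), where 0.128% of the 22588 genes tested were called. Before adjustment, 3 of the 8 had a p under 0.05, as had 9.06% of all genes tested. DESeq2 also called 0 of the 8, against 251 of 49585 genes. The 95% intervals of all 8 changes lay within 2-fold either way, from 0.579-fold to 1.80-fold. The libraries of a side are of several times and are not replicates of 1 condition. The SD values given below for late and early libraries therefore include differences between times. In the same comparison and with the same test, Cdkn1a, which encodes the cell cycle inhibitor p21 and is a target of the p53 family, rose by a log2 fold change of 3.32 (SE 0.34, adjusted p = 0.0036). Mdm2, the ubiquitin ligase that p53 family proteins induce, rose by 2.63 (SE 0.27, adjusted p = 0.0036). Both are known targets of the pathway and serve here as its readout. Cdkn1a went from between 3.72 and 11.5 CPM in the early libraries to between 45.8 and 93.7 in the late ones, and Mdm2 from between 52.9 and 75.7 to between 234.4 and 588.8.

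**Figure D2:**
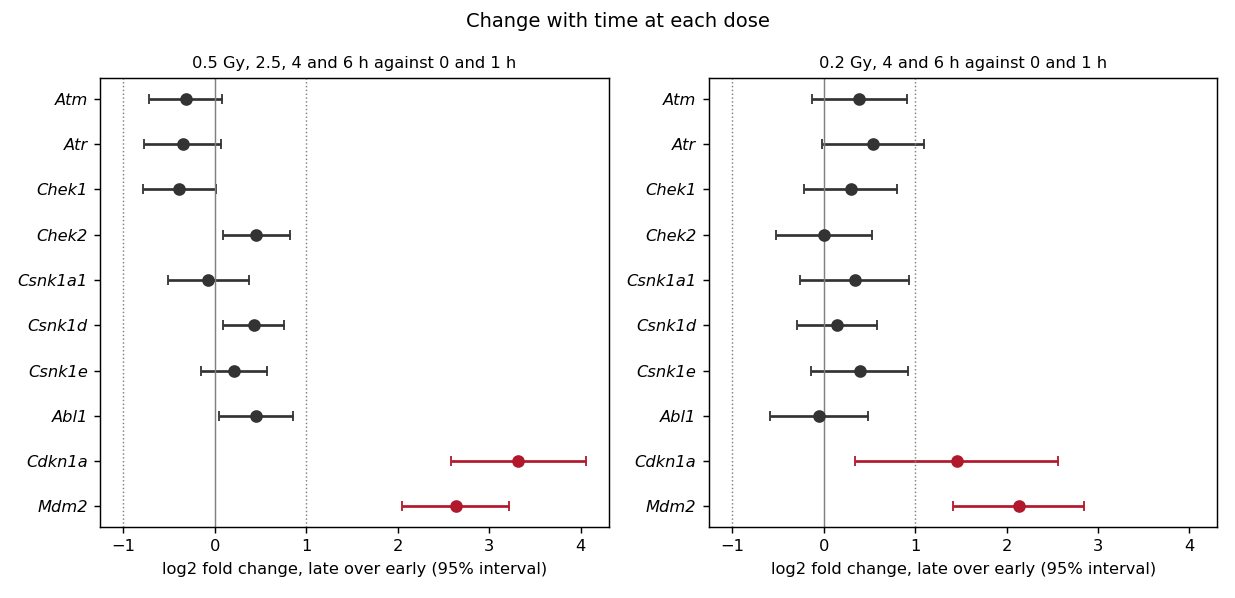
Log2 fold change of late over early libraries at 0.5 Gy (left) and 0.2 Gy (right) with its 95% interval from edgeR's quasi-likelihood fit; dotted lines mark 2-fold. The 8 kinases (black) lie between −0.39 and 0.45 at 0.5 Gy and between −0.05 and 0.54 at 0.2 Gy, while Cdkn1a and Mdm2 (red) lie at 3.32 and 2.63 at 0.5 Gy.

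Each time point was also set against 0 h in a fit of the 8 libraries of 0.5 Gy. No kinase was called at 1, 2.5, 4 or 6 h, nor was any other gene among 28468, a background of 0%. At 4 h, 3 of the 8 kinases had an unadjusted p under 0.05, and at 1, 2.5 and 6 h 0 of 8 did. Over all genes this share was 5.82% at 4 h and 3.98%, 5.58% and 5.95% at those other times. The 3 kinases of 4 h were Atr with −0.66 (SE 0.27), Chek1 with −0.70 (SE 0.28) and Abl1 with 0.78 (SE 0.30), with adjusted p-values of 0.841, 0.840 and 0.837 from edgeR. DESeq2 called 0 of the kinases at each of these times, where it called 31, 109, 140 and 148 of 49585 genes at 1, 2.5, 4 and 6 h. The intervals of single times were wide and reached from 0.397-fold for Chek1 to 2.74-fold for Abl1 at 4 h and to 2.77-fold for Abl1 at 6 h. At 1 h, 7 of the 8 intervals lay within 2-fold, whereas 1 did at 2.5 h, 1 at 4 h and 3 at 6 h.

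ATM is the apical kinase of the response to double-strand breaks. Its gene (chr9:53439149-53536740, minus strand, GRCm38) had 47.1 CPM in the first and 58.9 in the second generation at 0 h of 0.5 Gy. At 1 h the 2 libraries had 66.2 and 40.2 CPM, and at 4 h they had 42.6 and 38.1. The 2.5 h library had 47.6 CPM and the 6 h library 42.1. At 1 h the generations thus lay on opposite sides of their 0 h values, and late and early libraries overlapped. The late level was 42.6 ± 3.88 CPM and the early level 53.1 ± 11.7 (SD, n = 4 libraries each), a log2 fold change of −0.32 (SE 0.18, adjusted p = 0.635 with edgeR). At 0.2 Gy, Atm had 44.8, 40.6, 51.9, 56.0 and 55.9 CPM in time order, from 0 h over 1, 2.5 and 4 h to 6 h. Both late libraries of that dose stood above both early ones.

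**Figure D3:**
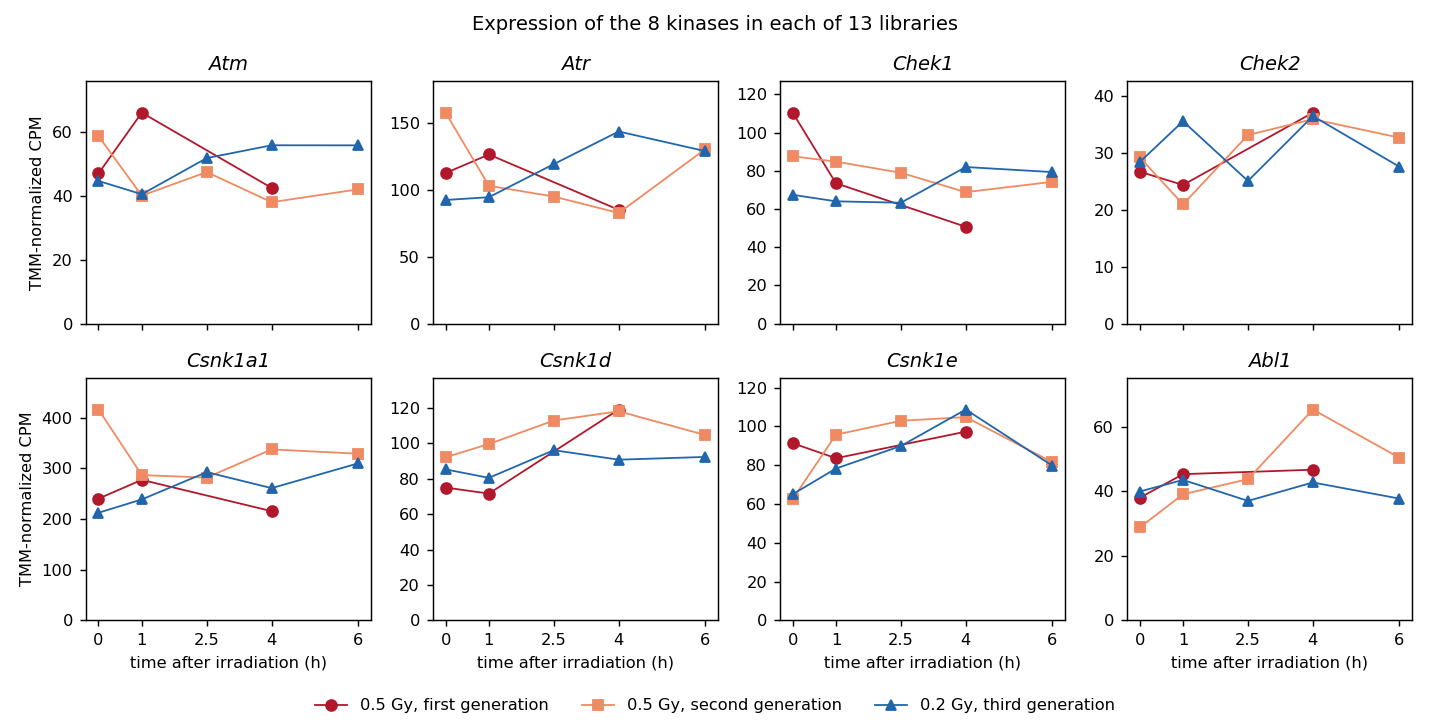
TMM-normalized CPM of the 8 kinases against time after irradiation, with 1 point per library and lines joining the libraries of a generation. Chek2 and Csnk1d are the kinases whose 2.5, 4 and 6 h libraries of 0.5 Gy all lie above those of 0 and 1 h, and at 0.2 Gy the 4 and 6 h libraries lie above those of 0 and 1 h for Atm, Atr, Chek1 and the 3 casein kinase genes.

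Reads of Atm fell mostly on the full-length coding transcript Atm-201, which took a median of 81.9% of them. Atm-202, a fragment of 281 bases annotated as a retained intron, took only 3.05% of the reads, between 14.7 and 49.9 reads per library. It held a median of 68.2% of the summed Atm TPM, at an effective length of 37.0 to 39.2 bases in the salmon files. The sequence of Atm-202 is shown since it held most of the summed TPM of the gene. It spans chr9:53440105-53442560 on the minus strand (GRCm38), and the 39 capitals mark bases that lie in an intron of Atm-201, while the rest is shared with Atm-201.
Atm-202: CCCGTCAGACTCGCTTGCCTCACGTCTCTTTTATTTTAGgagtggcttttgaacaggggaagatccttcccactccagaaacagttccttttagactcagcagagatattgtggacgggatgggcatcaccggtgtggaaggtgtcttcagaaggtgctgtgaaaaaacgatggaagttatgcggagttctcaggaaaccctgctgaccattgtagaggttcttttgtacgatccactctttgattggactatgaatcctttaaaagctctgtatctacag
With gene TPM scaled to the library total, the late against early change of Atm at 0.5 Gy was 0.12 in place of −0.32, and it was not called on either scale.

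The start of Atm faces that of Npat, a regulator of histone genes that is transcribed in the opposite direction. The genes are 306 bases apart, and 181 of these bases, at chr9:53536741-53536921, lie in the RefSeq promoter window of Atm (GRCm38.p6), read here on the minus strand. The stretch is shown as the region from which Atm is transcribed, with a GGGCGG box and a CCAAT box on the reverse strand (ATTGG) in capitals.
Atm upstream: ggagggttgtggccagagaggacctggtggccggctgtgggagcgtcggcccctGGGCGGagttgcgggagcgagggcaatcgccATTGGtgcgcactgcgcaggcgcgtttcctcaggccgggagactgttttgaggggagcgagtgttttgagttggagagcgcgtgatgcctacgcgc
A CCAAT box on either strand was found in 37.4% and GGGCGG in 35.7% of 32851 RefSeq windows of 300 bases.

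ATR is the apical kinase of the response to single-stranded DNA. Atr (chr9:95857597-95951781, plus strand) started at 112.6 and 157.8 CPM in the libraries of 0 h at 0.5 Gy. The pair of 1 h libraries had 126.5 and 103.1 CPM and the pair of 4 h libraries 85.1 and 82.7. Between these times the 2.5 h library had 95.03 CPM, while the last, taken at 6 h, had 130.5. The libraries of 2.5 and 4 h, with those of 0 and 1 h at 0.2 Gy, were the 5 lowest of the 13, and the 6 h library lay within the early range. Late and early libraries averaged 98.3 ± 22.1 and 125.0 ± 23.9 CPM (SD, n = 4 each), a log2 fold change of −0.35 (SE 0.19, adjusted p = 0.627 with edgeR) that was −0.21 without replicate 2 of 0 h. The 0.2 Gy libraries ran the other way, with 92.4, 94.5, 119.3, 143.7 and 129.0 CPM in time order. Of the 30-base stretches of Atr transcripts, 5.98% also occur in transcripts of other genes, 2.94% in 1700065D16Rik, an antisense gene at the start of Atr. Reads of the pair can be split between them, so the Atr values carry that uncertainty.

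CHK1 is the main target of ATR. Chek1 (chr9:36708482-36727065, minus strand) had its highest level, 110.4 CPM, in the first-generation library of 0 h at 0.5 Gy, against 87.6 in the second. It then had 73.4 and 84.8 CPM in the 1 h pair, 50.6 and 68.8 in the 4 h pair, and 78.9 and 74.2 in the single 2.5 h and 6 h libraries. The lowest value was thus that of 4 h in the first generation, and the late and early ranges overlapped. The late level was 68.1 ± 12.4 CPM and the early level 89.0 ± 15.5 (SD, n = 4 each), a log2 fold change of −0.39 (SE 0.18, adjusted p = 0.559 with edgeR). With the 2.5 h library left out, the late and early libraries differed by −0.83 within the first generation and by −0.27 within the second, on the log2 CPM scale. At 0.2 Gy the levels were 67.4, 64.0, 63.2, 81.9 and 79.3 CPM in time order.

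Most of the Chek1 reads were assigned to a transcript that is not annotated as coding. This processed transcript of 2142 bases took a median of 62.5% of the estimated reads, from 50.02% to 71.2% over the libraries. At 0.5 Gy its share was 57.0% to 71.2% in the early and 64.3% to 69.3% in the late libraries, so the ranges overlapped. It lacks an exon of 224 bases at chr9:36723797-36724020 (minus strand, GRCm38) that codes for part of the kinase domain, and this length is not a multiple of 3. The missing exon is shown with the 30 bases around the junction that takes its place, in which capitals mark the downstream exon. Among the annotated transcripts of all genes that junction occurs in this processed transcript alone.
Chek1 exon absent from the processed transcript: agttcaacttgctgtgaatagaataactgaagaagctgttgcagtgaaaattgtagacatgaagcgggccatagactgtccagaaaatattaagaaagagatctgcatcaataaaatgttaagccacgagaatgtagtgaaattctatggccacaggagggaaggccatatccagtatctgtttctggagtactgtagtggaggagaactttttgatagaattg
Chek1 junction of the processed transcript: aggtgcctatggagaAGCCAGACATAGGGA
Of the 30-base stretches of the processed transcript, only 1.28% occur in no other Chek1 transcript, so reads of 30 bases place most fragments only through the estimate of salmon. These shares are descriptions, and no read over the junction was counted here. Another short transcript, the coding fragment Chek1-203 of 310 bases, held 61.3% of the Chek1 TPM on 5.11% of its reads.

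**Figure D4:**
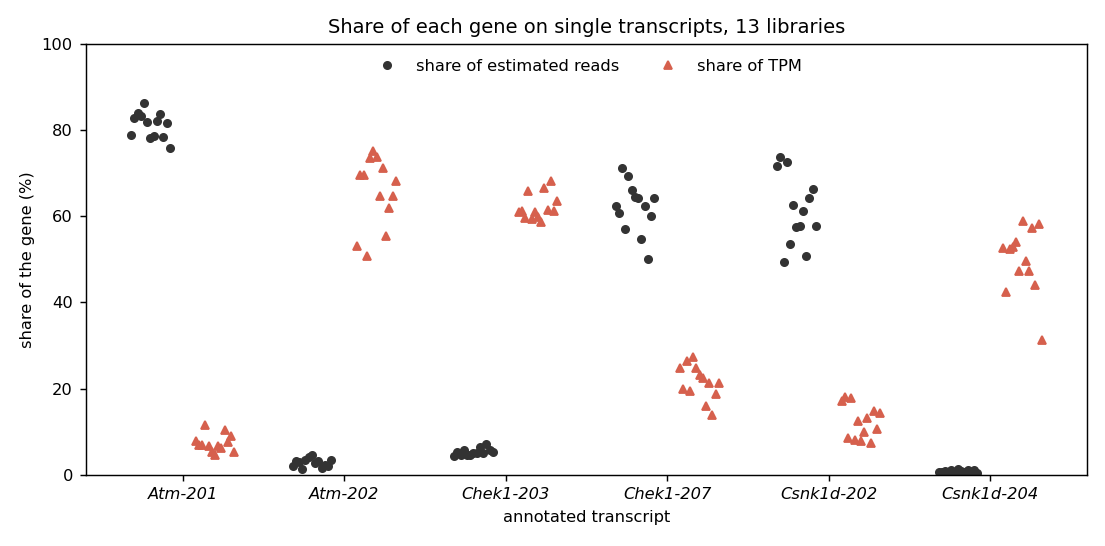
Share of a gene's estimated reads (circles) and of its summed TPM (triangles) on 6 annotated transcripts, with 1 point per library for 13 libraries. Atm-202 and Csnk1d-204 hold at most 4.65% and 1.28% of the reads but at least 50.8% and 31.2% of the TPM, and the processed transcript of Chek1, the fourth from the left, holds 50.02% to 71.2% of the Chek1 reads.

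CHK2 is the kinase that primes TAp63α. Chek2 (chr5:110839979-110874145, plus strand) had 26.7 and 29.2 CPM at 0 h and 24.3 and 20.9 at 1 h of 0.5 Gy. Later came 33.1 CPM in the 2.5 h library, 37.0 and 35.9 in those of 4 h, then 32.7 in that of 6 h. All 4 late libraries lay above all 4 early ones, with 34.7 ± 2.13 against 25.3 ± 3.51 CPM (SD, n = 4 each). The log2 fold change was 0.45 (SE 0.17), the highest value among the 8, with an unadjusted p of 0.020 and an adjusted p of 0.469 from edgeR. In log2 CPM and with the 2.5 h library left out, the difference was 0.54 within the first and 0.47 within the second generation. At 0.2 Gy no such separation was seen, with 28.4, 35.5, 25.0, 36.4 and 27.5 CPM in time order and a log2 fold change of 0.0010 (SE 0.24). Transcripts of other genes hold 6.67% of the 30-base stretches of Chek2, the highest share among the 8, and Gm38190 alone holds 3.19%. The part of this sharing in the Chek2 values was not tested.

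Chek2 also faces a neighbour, Hscb, which encodes a co-chaperone of iron-sulfur cluster assembly. The bases between the genes, chr5:110839778-110839978 (GRCm38.p6, plus strand), hold 2 CCAAT boxes on the reverse strand (ATTGG in capitals) and no GGGCGG box. They are shown because Chek2 had the highest late against early value at 0.5 Gy.
Chek2 upstream: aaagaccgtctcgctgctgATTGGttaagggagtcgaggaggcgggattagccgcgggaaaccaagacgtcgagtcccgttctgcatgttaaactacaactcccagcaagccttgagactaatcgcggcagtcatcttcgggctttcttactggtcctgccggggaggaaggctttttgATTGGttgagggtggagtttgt
Promoter windows were searched for 6 of the kinases, not for Csnk1a1 and Csnk1d. None of these 10 RefSeq windows held a half-site of the p53 family, searched in its standard degenerate form, which 8.36% of all windows hold. A GGGCGG box stood in windows of 4 of the 6 genes and in 8 of the 10 windows, of which 4 overlapping ones belong to Csnk1e and 2 to Abl1, against 35.7% of all windows, and a CCAAT box in those of Atm and Chek2 only among these 6 genes.

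Casein kinase 1 completes the activation of TAp63α after CHK2. Csnk1d (chr11:120961749-120991330, minus strand) had 75.0 and 92.2 CPM at 0 h and 71.6 and 99.6 at 1 h of 0.5 Gy. The 2.5 h library reached 112.9 CPM, both 4 h libraries 119.1 and 118.1, and the 6 h library 104.7, again all above the early ones. The late mean was 113.7 ± 6.58 CPM and the early mean 84.6 ± 13.5 (SD, n = 4 each), a log2 fold change of 0.42 (SE 0.15), with an unadjusted p of 0.018 and an adjusted p of 0.463 from edgeR. Within generations, with the 2.5 h library left out, the difference was 0.70 in the first and 0.21 in the second, on the log2 CPM scale. At 0.2 Gy the levels were 85.3, 80.5, 96.1, 90.8 and 92.3 CPM in time order. Chek2 and Csnk1d were the only 2 of the 8 kinases whose late libraries of 0.5 Gy all lay above the early ones, and 0 of 8 lay below. Over all 28493 genes, 2.81% lay above and 2.03% below in this way.

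The reads and the TPM of Csnk1d also lay on different transcripts. Csnk1d-204, of 192 bases, carried 0.736% of the gene's reads and 52.4% of its TPM, on 7.71 to 40.0 reads per library. The coding transcript Csnk1d-202 took 61.3% of the reads. An antisense gene, Gm28192, lies within Csnk1d and holds 0.749% of its 30-base stretches.

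The other casein kinase 1 genes, Csnk1a1 and Csnk1e, had late and early libraries that overlapped at 0.5 Gy. Csnk1a1 had 240.1 CPM in the first and 415.8 in the second generation at 0 h of 0.5 Gy, the widest gap between replicates of any of the kinases. Among the others, those of 1 h had 277.1 and 286.6 CPM, that of 2.5 h 281.5, those of 4 h 215.4 and 337.2, and that of 6 h 328.7. Late and early libraries overlapped, with 290.7 ± 55.9 and 304.9 ± 76.6 CPM (SD, n = 4 each) and a log2 fold change of −0.08 (SE 0.20, adjusted p = 0.940 with edgeR). The 0.2 Gy libraries had 212.3, 238.5, 292.3, 260.8 and 309.7 CPM in time order. Csnk1e (chr15:79417856-79455566, minus strand) started at 91.4 and 62.5 CPM in the 0.5 Gy libraries of 0 h, followed by 83.6 and 95.8 in those of 1 h. Its later levels were 102.9 CPM (2.5 h), 97.3 with 104.8 (4 h), then 81.5 (6 h). Its low value was that of the second generation at 0 h, the library in which Csnk1a1 was highest. From early to late its log2 fold change was 0.21 (SE 0.17, adjusted p = 0.735 with edgeR), and without replicate 2 of 0 h it was 0.10. At 0.2 Gy Csnk1e had 65.0, 78.3, 89.9, 108.7 and 79.7 CPM in time order. With the 2.5 h libraries left out, its late libraries exceeded the early ones in each generation, in log2 CPM. The difference was 0.155 in the first, 0.26 in the second and 0.38 in the third. For Csnk1a1 it was −0.26, −0.05 and 0.34. Of its 30-base stretches, 3.18% are shared with the antisense gene Gm16059.

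Abl1 (chr2:31688376-31804227, plus strand) had 38.0 and 28.8 CPM at 0 h and 45.3 and 39.1 at 1 h of 0.5 Gy. Thereafter the 2.5 h library had 43.7 CPM, the 4 h libraries 46.7 and 65.3, and the 6 h library 50.4. Only the 2.5 h library, at 43.7, fell below the highest early value of 45.3. The late mean was 51.5 ± 9.59 CPM and the early mean 37.8 ± 6.81 (SD, n = 4 each), a log2 fold change of 0.44 (SE 0.19), with an unadjusted p of 0.034 and an adjusted p of 0.505 from edgeR. With the 2.5 h library left out, the difference was 0.17 within the first generation and 0.77 within the second, in log2 CPM. At 0.2 Gy Abl1 stayed between 37.0 and 43.5 CPM, with 39.9, 43.5, 37.0, 42.7 and 37.7 in time order.

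At 0.2 Gy most of the kinases had values above 0 late against early, but none passed the test. Each time of this dose had 1 library, so the fit took its spread from the 11 libraries of both doses at 0, 1, 4 and 6 h. In the comparison of 4 and 6 h with 0 and 1 h, 0 of 8 were called with edgeR, against 0.0462% of 28162 genes. Of the 8, 0 had an unadjusted p under 0.05, against 7.30% of all genes. DESeq2 also called 0 of the 8, against 147 of 49585 genes. The log2 fold changes were 0.39 for Atm (SE 0.24), 0.54 for Atr (SE 0.26), 0.29 for Chek1 (SE 0.23), 0.34 for Csnk1a1 (SE 0.27), 0.14 for Csnk1d (SE 0.20), 0.39 for Csnk1e (SE 0.24) and −0.05 for Abl1 (SE 0.25). Both late libraries lay above both early ones for 6 of the 8 kinases, all but Chek2 and Abl1. With 2 libraries on each side, 20.1% of all 28493 genes lay above in this way and 26.4% below. Of the 6 marker lists, 4 moved with these values. For the oocyte markers the summed level was 3092 and 3823 CPM in the early and 3871 and 4486 CPM in the late libraries of 0.2 Gy. The red blood cell markers summed to 2188 and 2189 CPM early and 2710 and 4139 late, the leukocyte markers to between 31.9 and 34.7 early and between 40.7 and 54.4 late, and the endothelial markers to between 62.6 and 67.1 early and between 69.5 and 72.9 late. The granulosa cell and stroma markers overlapped between early and late. The part of these lists in the result was not tested. Mdm2 had 51.5 and 59.2 CPM early and between 230.2 and 255.3 late, a log2 fold change of 2.13 with an adjusted p of 0.064 from edgeR, which missed the threshold. Cdkn1a had 6.79 and 13.8 CPM early and 33.6 and 22.8 late, a log2 fold change of 1.45 (SE 0.51) with an adjusted p of 0.638 from edgeR.

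Atm, Atr, Chek1, Csnk1a1 and Abl1 had values of opposite sign at the 2 doses. The difference in the change from 0 and 1 h to 4 and 6 h, 0.2 Gy minus 0.5 Gy, was 0.76 for Atm (SE 0.30), 0.87 for Atr (SE 0.32) and 0.76 for Chek1 (SE 0.30) on the log2 scale. The 2.5 h libraries of both doses were left out of this fit, unlike in the late against early comparison of 0.5 Gy. Their unadjusted p-values were 0.025, 0.019 and 0.024, where 8.14% of all genes had one under 0.05, and the adjusted p was 0.564 for each with edgeR's quasi-likelihood test. So 0 of 8 kinases were called in the difference, where 0.032% of 28162 genes were. DESeq2 called 0 of the 8 as well, against 131 of 49585 genes. The intervals, 1.08-fold to 2.67-fold for Atm, 1.13-fold to 2.98-fold for Atr and 1.09-fold to 2.64-fold for Chek1, contain both small and large differences. For Chek2 the difference was −0.48 (SE 0.31) and for Abl1 −0.57 (SE 0.31), with adjusted p-values of 0.696 and 0.654 from edgeR. It was 0.39 for Csnk1a1 (SE 0.34), −0.29 for Csnk1d (SE 0.25) and 0.21 for Csnk1e (SE 0.31), with adjusted p-values of 0.779, 0.781 and 0.885. Since all 0.2 Gy libraries are of the third generation, a difference between doses and a difference between generations cannot be told apart. The 0 h libraries were taken before irradiation and received no dose. Among them Chek1 had 67.4 CPM in the 0.2 Gy series against 110.4 and 87.6 in the 0.5 Gy series. Atr had 92.4 against 112.6 and 157.8, Atm 44.8 against 47.1 and 58.9, and Csnk1a1 212.3 against 240.1 and 415.8. Abl1 had 39.9 against 38.0 and 28.8. The part of this in the differences was not tested.

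Both doses were also put in 1 fit, with the generation as a block and the 2.5 h libraries left out. The changes of Atm and Atr from early to late were then close to 0, at −0.07 (SE 0.17) and −0.02 (SE 0.19). Csnk1d had 0.31 (SE 0.12), the only one of 8 with an unadjusted p under 0.05 (0.018, adjusted p = 0.555 with edgeR), as had 7.25% of all genes. Without replicate 1 of 4 h at 0.5 Gy, its value was 0.18. Chek2 and Abl1 had 0.31 each (SE 0.16 and 0.17), Csnk1e 0.27 (SE 0.15), Csnk1a1 0.03 (SE 0.14) and Chek1 −0.19 (SE 0.17). Without 1 library, Abl1 went down to 0.18, the lowest value being that without replicate 2 of 0 h at 0.5 Gy. None was called by edgeR, against 0.121% of 28162 genes, among them Cdkn1a with 2.59 and Mdm2 with 2.42. DESeq2 called 0 of the 8 and 186 of 49585 genes. All 8 intervals lay within 2-fold, from 0.675-fold to 1.59-fold.

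Averaged over the times, the levels of the kinases were also compared between the doses, which sets the opposite courses of a gene such as Atr against each other. In a fit of all 13 libraries with time in the model, the 0.2 Gy libraries differed from those of 0.5 Gy by between −0.21 for Csnk1a1 and 0.07 for Atm on the log2 scale. The libraries of 0 h, taken before irradiation, were counted with their series, so this is a difference between series and not of dose alone. None of the 8 was called with edgeR, against 0.00351% of 28493 genes, and 0 had an unadjusted p under 0.05, against 11.5% of all genes. DESeq2 called 0 of the 8 and 222 of 49585 genes. The intervals of these averages lay between 0.676-fold and 1.37-fold. Between the first and second generation of 0.5 Gy, Csnk1a1 was 0.51 higher in the second on the log2 scale (SE 0.19), with an unadjusted p of 0.027 and an adjusted p of 0.489. It was the only kinase with an unadjusted p under 0.05, as had 9.16% of all genes. DESeq2 called 0 of the 8 and 274 of 49585 genes. With edgeR 0 of 8 were called, against 0.0913% of 28468 genes. Without 1 library, edgeR called between 25 and 186 of all genes here in place of 26, the 186 without replicate 1 of 0 h. Replicates at the same time differed by a median of 0.30 in log2 CPM over 24 pairs of kinase and time, and by more than 0.5 in 4 of the 24.

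The genes around the kinases were not called either in the late against early comparison of 0.5 Gy, where 0.128% of 22588 genes were. At that share few calls would arise in lists of this size. Of 11 genes that help activate ATM, such as the MRN complex and the ubiquitin ligases that act at breaks, 0 were called, with 7 above and 4 below 0 and a median of 0.03 on the log2 scale. The largest values were 0.40 for Kat5, the acetyltransferase of ATM, and 0.22 for Rad50. The lowest were −0.42 for Rnf168 and −0.11 for Brca1. Of 14 tested activators of ATR among 15, 0 were called, with a median of −0.02. Rad9a, part of the clamp that brings in TOPBP1, had 0.61, and Atrip, the partner of ATR, had 0.53. Their unadjusted p-values were 0.0068 and 0.0042 and their adjusted p-values 0.372 and 0.324 with edgeR, where 9.06% of all genes had an unadjusted p under 0.05. Etaa1, an activator of ATR on its own, had −0.78 and Rpa3, a subunit of the single-strand binding protein, had −0.46. The median over all genes tested was −0.02.

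Related kinases, substrates and phosphatases gave the same count of 0 called genes, against the same 0.128% of all genes. The 8 related kinases had a median of 0.01, with 0.62 for Csnk1g1 and 0.25 for Trrap at the upper end and −0.35 for Csnk1g3 and −0.29 for Prkdc at the lower. Csnk1g1 had an unadjusted p of 0.0025 and an adjusted p of 0.275 with edgeR. The 11 substrates had a median of 0.15. Trp73, the p53 family member that c-Abl phosphorylates, had 2.53 (SE 0.69, unadjusted p = 0.0039, adjusted p = 0.322 with edgeR), and Pkmyt1 had 0.45. Wee1, a CDK1 inhibitor and CHK1 target, had −0.58 and Cdc25c −0.22. Trp63, the gene of the substrate itself, had between 50.7 and 105.6 CPM in the early and between 74.5 and 113.4 CPM in the late libraries. The 9 phosphatases had a median of −0.16. Ppm1d, which reverses ATM phosphorylation and is itself a p53 target, had 0.70 and Ppp5c had 0.47, while Ppp2cb had −0.70 and Ppp1cc −0.52, all with adjusted p-values of 0.397 or more. The lowest unadjusted p of these 4 was 0.0081 for Ppp1cc with edgeR.

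At 0.2 Gy 0 genes of any of these 5 lists were called either, against 0.0462% of 28162 genes. All 8 related kinases lay above 0 there, with a median of 0.30, and 10 of 11 substrates did, with a median of 0.18, while the median of all genes was −0.03. Of the 9 phosphatases 6 lay above 0, with a median of 0.35. Of the ATM activators 8 of 11 did, with a median of 0.21, and of the ATR activators 9 of 14, with a median of 0.16. The share of all genes above 0 was not counted. In each of the other comparisons, too, 0 genes of the 5 lists were called, against at most 0.121% of all genes tested.

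Over the 13 libraries, Atm and Atr had the most similar course of any pair among the 8, with a Pearson correlation of log2 CPM of 0.75. The least similar pair was Atr and Abl1 with −0.58. Among 19154 protein-coding genes, those most like Atm were Zfp182 (0.90) and Dnaja4 (0.88), and those most like Atr were Cacna2d1 (0.89) and Zfp292 (0.87). Chek1 was closest to Ibsp (0.85), and Chek2 to Gm14137 (0.86) and Rnf222 (0.85). For the casein kinases these were Arf4 and Ppp4r3b (0.88 each) with Csnk1a1, Napepld (0.90) and Mst1 (0.89) with Csnk1d, and Cct5 (0.91) and Kmt2b (0.90) with Csnk1e. Abl1 was most like Ric8a (0.91) and Napa (0.89). These values are descriptions over 13 points that share their libraries, depth and normalization.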

How the data were processed

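RNA from oocytes was sequenced with reads of 30 bases after cDNA synthesis with the SMARTER kit, and the sources disagree on whether reads were single or paired. The authors mapped the reads with salmon to the mouse transcripts of Ensembl 92 (GRCm38) and deposited estimated counts and TPM values per transcript for each library, neither filtered nor normalized between libraries. Tables of the authors' own DESeq2 comparisons were not used. Estimated counts were summed per gene of the GENCODE annotation of GRCm38, which left out 402 of 130740 transcripts, and rounded. They were normalized with TMM, filtered with filterByExpr and tested with edgeR 4.0.16 (quasi-likelihood, Benjamini-Hochberg adjustment over all genes tested, threshold 0.05 and log2 fold change over 1), with DESeq2 1.42.0 as an alternative. The 0.5 Gy comparisons used 8 libraries and those with 0.2 Gy 11 or 13. CPM per library used TMM over 13 libraries, and log2 CPM a prior count of 2. Intervals are 95% intervals from the fit. Strand was not used by the counting as far as the sources state. Promoter windows (250 bases before to 50 after a start) are from RefSeq on GRCm38.p6. They were matched by symbol and searched for 6 kinases, but not for Csnk1a1 and Csnk1d. Named genes were the 8 kinases, the 2 extreme genes of each list at each end, Cdkn1a, Mdm2, and the 2 protein-coding genes most like each kinase, apart from 1 gene that is not reported here. The members and lists were chosen with earlier results of these data known. The fits were tested on simulated counts.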

Additional observations from a re-analysis of the deposited data

Results flagged for a closer look

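For Atm and Chek1, every 4 and 6 h library of 0.5 Gy lay below the mean of the early libraries of that dose in log2 CPM, and both late libraries of 0.2 Gy lay above theirs. For Atm the late libraries differed from the early mean by between −0.45 and −0.29 at 0.5 Gy and by 0.39 each at 0.2 Gy. The tested difference between the doses, 0.2 Gy minus 0.5 Gy, was 0.7647 for Atm, with an unadjusted p of 0.025. For Chek1 they differed by between −0.80 and −0.25 at 0.5 Gy and by between 0.27 and 0.32 at 0.2 Gy. The tested difference was 0.7593, with an unadjusted p of 0.024. Neither passed edgeR's quasi-likelihood test after adjustment, with an adjusted p of 0.564 for both. The share of all genes with such a split was not counted, so how common it is was not tested. Atr had a larger difference of 0.87 but no such split. Its late libraries at 0.5 Gy differed from the early mean by between −0.58 and 0.08. Dose and generation cannot be told apart here, and the 0 h libraries of both series received no dose.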

How the results depend on the processing

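None of the 8 kinases was called in any of the 10 comparisons with other size factors, without the filter, with DESeq2, with scaled gene TPM or without any 1 of the libraries that entered it. None was called either in the 4 comparisons with 0 h with the beta prior of DESeq2, in the 7 comparisons refitted with the generation as a replicate block, or in that of both doses with no replicate block. Of 416 values of single kinases under settings that kept all libraries, 388 kept their direction and 28 changed sign, all of them without a call, and of 736 values without 1 library 55 changed sign. The cause was not tested. With gene TPM scaled to the library total, the sign changed for Atm at 1 h (−0.11), Atm at 2.5 h (0.076), Csnk1a1 at 2.5 h (0.14), Atm at 4 h (0.19), Atr at 6 h (0.0088), Atm late against early at 0.5 Gy (0.12), Csnk1a1 late against early at 0.5 Gy (0.18), Chek2 late against early at 0.2 Gy (−0.16), Csnk1d late against early at 0.2 Gy (−0.029), Csnk1e in the difference between doses (−0.48), Atm with both doses (0.30), Atr with both doses (0.087), Atm 0.2 against 0.5 Gy (−0.15), Atr 0.2 against 0.5 Gy (−0.053), Chek1 0.2 against 0.5 Gy (0.091), Abl1 0.2 against 0.5 Gy (0.0043), Atr between generations (−0.30), Chek2 between generations (0.11), Csnk1e between generations (0.41) and Abl1 between generations (0.0037). With relative log expression size factors it changed for Atm at 1 h (−0.0029) and Csnk1a1 at 6 h (−0.0096). Without the filter on low counts it changed for Atr at 6 h (0.038). With the DESeq2 Wald test it changed for Csnk1a1 at 6 h (−0.00015) and Abl1 late against early at 0.2 Gy (0.0011). With the beta prior of DESeq2 it changed for Csnk1a1 at 6 h (−0.015). With the generation as a replicate block it changed for Atm at 1 h (−0.00040) and Csnk1a1 at 6 h (−0.16). At 1 h, without 1 library, the value ran, for Atm from −0.37 to 0.32, Atr from −0.45 to 0.060, Csnk1a1 from −0.55 to 0.26 and Csnk1d from −0.22 to 0.29. At 2.5 h, without 1 library, the value ran, for Atm from −0.29 to 0.052 and Csnk1a1 from −0.54 to 0.27. At 4 h, without 1 library, the value ran, for Csnk1a1 from −0.60 to 0.24. At 6 h, without 1 library, the value ran, for Atr from −0.24 to 0.27, Csnk1a1 from −0.30 to 0.51 and Csnk1e from −0.11 to 0.42. Late against early at 0.5 Gy, without 1 library, the value ran, for Csnk1a1 from −0.17 to 0.12. Late against early at 0.2 Gy, without 1 library, the value ran, for Abl1 from −0.16 to 0.044 and Chek2 from −0.23 to 0.20. In the difference between doses, without 1 library, the value ran, for Csnk1e from −0.066 to 0.43. With both doses, without 1 library, the value ran, for Atm from −0.17 to 0.060, Atr from −0.12 to 0.13, Chek1 from −0.29 to 0.012 and Csnk1a1 from −0.046 to 0.14. Between the doses at matched times, without 1 library, the value ran, for Atm from −0.053 to 0.19, Atr from −0.16 to 0.23, Chek1 from −0.28 to 0.0090 and Chek2 from −0.13 to 0.13. Between generations, without 1 library, the value ran, for Abl1 from −0.29 to 0.16, Atm from −0.42 to 0.10, Atr from −0.15 to 0.24, Chek1 from −0.053 to 0.34, Chek2 from −0.11 to 0.059 and Csnk1e from −0.21 to 0.17. The replicate numbers were not shown to pair the libraries, since libraries of the same number correlated in their deviations by 0.13, 0.08 and 0.11 between pairs of times, and the replicate block left the count of called kinases at 0. The number of all genes called late against early at 0.5 Gy was 29, against 58 without the filter, 251 with DESeq2, 0 with scaled TPM and 18 with the replicate block. At 0.2 Gy it was 13, against 32, 147, 7 and 15, and for the difference 9, against 22, 131, 5 and 13. With both doses it was 34, against 52, 186, 5 and, with no replicate block, 41. Against 0 h it was 0 at each time, but 30 to 80 without the filter, 31 to 148 with DESeq2 and 20 to 139 with its beta prior, and up to 7 with the block. For 0.2 against 0.5 Gy it was 1, against 52, 222 and 0, and between generations 26, against 453, 274 and 0. Without 1 library the late against early number ran from 10 to 37 at 0.5 Gy and from 1 to 18 at 0.2 Gy, and the number for the difference from 0 to 13. It ran from 17 to 37 with both doses, from 0 to 10 against 0 h, from 0 to 5 for 0.2 against 0.5 Gy and from 25 to 186 between generations. Values of single kinases that kept their sign also moved by over 1.5 times without 1 library, as late against early at 0.5 Gy for Atr (−0.51 to −0.21), Atm (−0.42 to −0.20, the latter without replicate 1 of 1 h), Chek1 (−0.47 to −0.26, the latter without replicate 1 of 4 h) and Csnk1e (0.10 to 0.30), and with both doses for Csnk1d (0.18 to 0.35) and Abl1 (0.18 to 0.39). The level of the highest over that of the lowest kinase was 12.6 on TPM, 13.3 on protein-coding TPM and 14.6 per kilobase, a scale chosen after seeing the data. Single libraries at 2.5 and 6 h, and at all times of 0.2 Gy, limit what these comparisons could detect.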
